A study of Mus musculus with 34 samples.

Results

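The Dlx genes are a family of 6 homeobox genes, Dlx1 to Dlx6, and their CpG islands were followed here by methylated DNA immunoprecipitation (mDIP) across normal mouse tissues, embryos, embryonic stem (ES) cells and pancreatic cells. Members were found by the gene name that the array annotation gives to a probe. Of 97209 probes with a position, 94 carried a Dlx name, and probes separated by at most 500 bases were joined into islands of at least 3 probes. This gave 12 Dlx islands with 90 probes, out of 13847 islands scored on every array. Dlx2, Dlx5 and Dlx6 gave several islands each, as did Dlx3 and Dlx4, and islands of a gene are lettered in the order of their positions. The 4 probes of Dlx1 formed no scored island, because only 2 of them are on the smaller version of the array, and they are described by probe. The family was chosen by the scores of Dlx4 in differentiated ES cells against the other samples, so every comparison with those cells is given as a description without a test. The Dlx4 scores of the other samples entered that choice too, so p-values at the Dlx4 islands are descriptions. The other members were also chosen with earlier results of these data known.

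The Dlx proteins are transcription factors related to Distal-less of the fly, and the genes lie in convergent pairs, Dlx1 with Dlx2, Dlx3 with Dlx4 and Dlx5 with Dlx6. Dlx1, Dlx2, Dlx5 and Dlx6 act in the ventral forebrain, where they drive the formation of GABAergic interneurons, and in the branchial arches, where they pattern the jaws. Dlx3 acts in skin, hair, teeth, bone and placenta, and Dlx5 and Dlx6 act in limb and bone. Genes of this kind start in CpG-rich DNA, which is usually free of methylation in normal tissue, and in ES cells such genes often carry Polycomb proteins.

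Each array took the antibody-bound DNA of a sample, in Cy5, with its input DNA, in Cy3. The log ratios of an array were turned into Z-scores, and averaging these over the probes of an island gave its Island Methylation Score (IMS). An IMS of 0 is the mean of all probes of that array, and it is not a percentage of methylated DNA. There were 16 arrays of adult tissue, 2 each of colon, pancreas, brain, kidney, liver, lung, muscle and spleen from mice of 3 months, and 5 of whole embryos of 8.5, 9.5, 10.5, 11.5 and 12.5 days. By the labels the colon and pancreas arrays were male, the lung arrays female, and each other tissue had a female and a male array. The embryos were male, except the female of 12.5 days. The mouse DNA was from C57Bl/6 animals by the methods. Before differentiation, 3 ES lines were measured on a single array each (EB5, J1 and TT2). In vitro differentiated ES cells gave 5 arrays, of embryoid bodies from TT2, retinoic acid treated cells (TT2 by the label, J1 by the methods), 2 arrays of endoderm and 1 of mesoderm. Endoderm and mesoderm were sorted after Activin A treatment of 1 reporter line made from EB5. The 2 teratomas (J1 by the labels, other lines by the methods) grew in immunodeficient NOD-SCID mice and can hold host cells. Sorted β cells, from islets of Pdx1-GFP transgenic mice by the methods, and the pancreatic lines Min6 (β cell) and aTC (α cell) had 1 array each, so these have no replicate error. Arrays of a group are separate samples by their labels, but separate animals or cultures are not stated, so p-values measure the spread between these arrays.

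The arrays lie on 23 slides, were scanned on 16 days, and were of 2 designs, with 97651 probes on 14 arrays and 88737 on 20. Input spots were, in the median of an array, 3.07 to 7.34 times as bright as their background. The array labelled J1 stood apart: the deposited processed values correlated with those of its scanner file with r = 0.113 across probes, against 0.894 to 0.991 on the other arrays. Differences of undifferentiated ES cells at Dlx4 a and at Slc32a1 are therefore given with and without it, and other differences include it. Without J1 the ES means were 1.8 at Dlx3 a, 0.403 at Dlx3 b, 0.574 at Dlx5 a and 0.0215 at Dlx5 b. With J1 they were 1.69, 0.351, 0.292 and 0.0762.

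The starts of Dlx1 and Dlx2 show the kind of sequence that the arrays read in this family. Shown are the 250 bases before a RefSeq start of each gene (build GRCm38.p6, Dlx1 on the plus strand at chr2:71529195-71529444, Dlx2 on the minus strand at chr2:71546755-71547004), 5′ to 3′, with every CpG, the dinucleotide that can be methylated, in capitals. By the array annotation the probes of Dlx1 lie at positions -517 to 199 from its start, and those of island Dlx2 c at -206 to 2681.
Dlx1: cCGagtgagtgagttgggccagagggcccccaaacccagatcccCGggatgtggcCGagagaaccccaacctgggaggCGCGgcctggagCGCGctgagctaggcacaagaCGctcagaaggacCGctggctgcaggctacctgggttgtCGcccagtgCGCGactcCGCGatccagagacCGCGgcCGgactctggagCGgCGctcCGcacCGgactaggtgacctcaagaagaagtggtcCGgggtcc
Dlx2: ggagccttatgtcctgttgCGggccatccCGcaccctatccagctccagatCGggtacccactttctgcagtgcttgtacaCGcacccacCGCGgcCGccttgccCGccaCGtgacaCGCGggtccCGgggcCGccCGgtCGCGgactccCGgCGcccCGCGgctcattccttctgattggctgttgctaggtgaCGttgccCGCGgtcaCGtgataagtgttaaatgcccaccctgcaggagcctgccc
The 250 bases hold 22 CpGs for Dlx1 and 24 for Dlx2. Over 32851 promoters of the same table the median was 6, and 14.8% held at least 22 and 12% at least 24. Positions below are those of the array files, which name no build.

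In adult tissue the Dlx islands were mostly low, as were the islands of the arrays as a whole. The mean IMS over the 16 adult arrays was below 0 at 10 of the 12, and it was above 0 at 28.9% of all islands. Its median was -0.23 over the 12, against -0.214 over all islands. Dlx2 c, Dlx4 a and Dlx4 b were below 0 on all adult arrays, as were 29.2% of all islands, and no Dlx island was above 0.75 on all of them (7.31% of all islands were), the score above which an island is taken as methylated here.

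**Figure D1:**
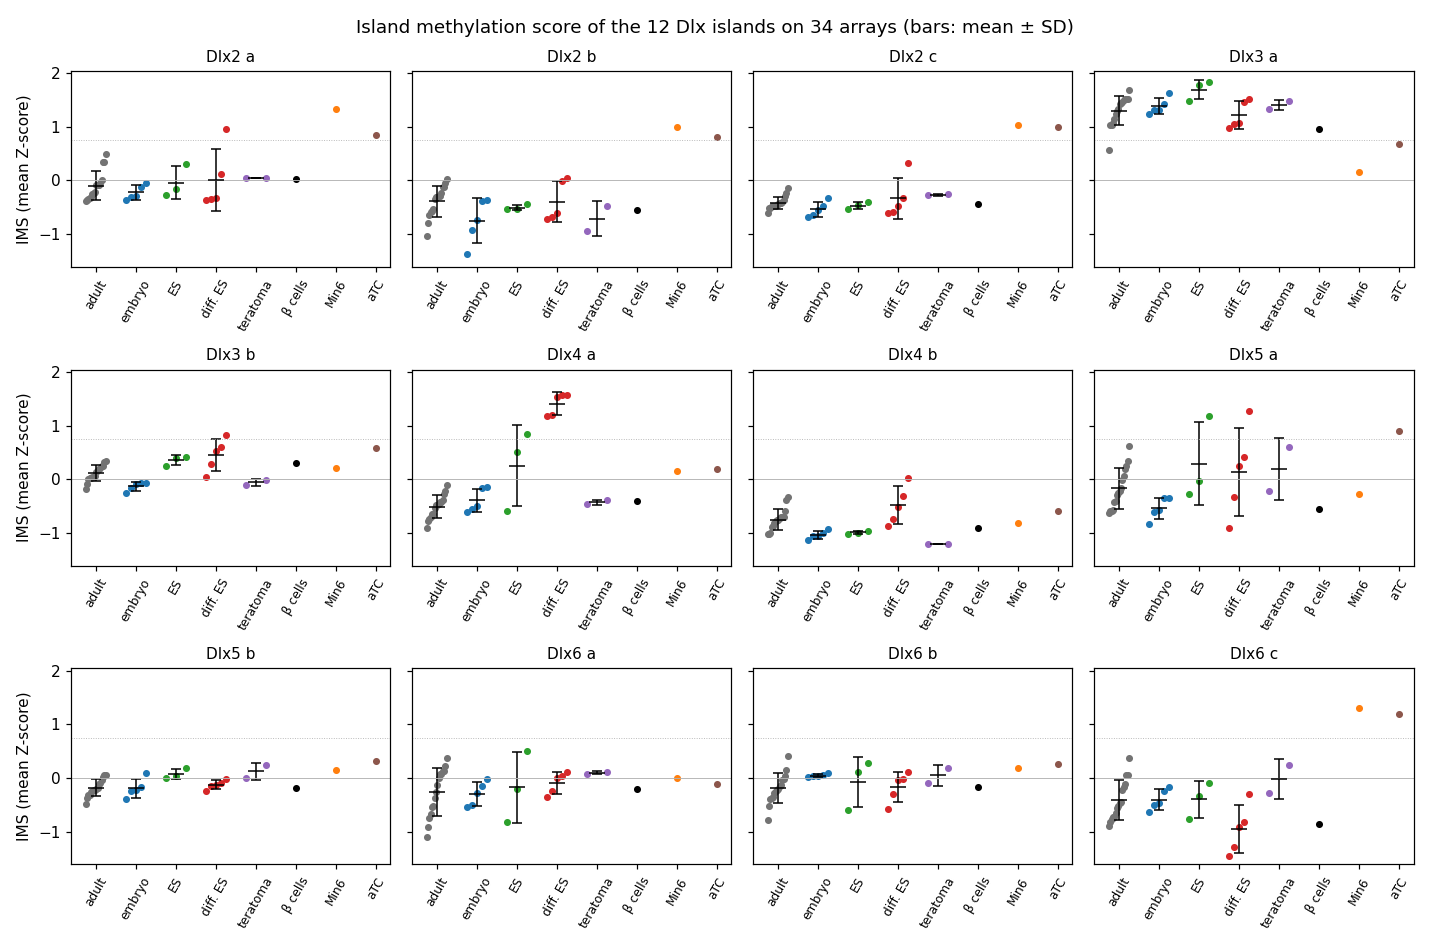
IMS (y axis, mean Z-score) of each of the 12 Dlx islands by group (x axis), 1 point per array, with the mean and SD where a group has several arrays and a dotted line at 0.75. Dlx4 a is above 1.1 on all 5 arrays of differentiated ES cells and below 0 on all adult arrays, and Dlx2 b, Dlx2 c and Dlx6 c stand highest in Min6 and aTC.

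The exception was the upstream island of Dlx3. Dlx3 a (chr11:94934206-94934683, 4 probes) lies at positions -1995 to -1569 from the start of Dlx3. Its IMS in adult tissue ranged from 0.573 to 1.68 with a median of 1.37, and 15 of 16 adult arrays were above 0.75. Embryos from 8.5 to 12.5 days gave 1.32, 1.25, 1.42, 1.3 and 1.64 and teratomas 1.33 and 1.47, all within the adult range. Sorted β cells gave 0.957, aTC 0.683 and Min6 0.153, and the value of Min6 was the lowest of all 34 arrays. At the start of the same gene, Dlx3 b (chr11:94936086-94938037, 15 probes, positions -116 to 1791) had an IMS of 0.109 ± 0.147 (SD, n = 16) in adult tissue, so the islands of this gene lay more than 1 unit apart on every adult array but the second of kidney and the second of lung.

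The islands at the starts of the other genes were low. Dlx4 b (chr11:94961065-94962462, 12 probes, positions -87 to 1261) had the lowest adult mean of the family, -0.754 ± 0.197 (n = 16). Dlx2 c (chr2:71344877-71347808, 20 probes) had -0.419 ± 0.115. Dlx6 c (chr6:6813573-6814128, 3 probes, positions -201 to 310) had -0.412 ± 0.371, and Dlx5 b (chr6:6831381-6831977, 6 probes, positions 113 to 665) had -0.183 ± 0.157. The 2 probes of Dlx1 that all arrays share, at positions -13 and 52, averaged -0.229 ± 0.293 (n = 16) in adult tissue. On the 10 adult arrays that carry all 4 Dlx1 probes the mean was -0.183 ± 0.191. SDs within adult tissue ran from 0.115 for Dlx2 c to 0.443 for Dlx6 a.

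Islands inside and around the genes Dlx2, Dlx5 and Dlx6 had adult means within the range of those at gene starts. That range ran from -0.754 at Dlx4 b to 0.109 at Dlx3 b. Dlx4 a, inside its gene, was lower than these islands, at -0.515. Dlx2 a (chr2:71341779-71342484, 8 probes) and Dlx2 b (chr2:71343831-71344291, 4 probes) lie toward and past the 3′ end of Dlx2, with adult means of -0.0978 ± 0.273 and -0.39 ± 0.286. Dlx5 a (chr6:6829220-6830320, 8 probes, positions 1773 to 2825) had -0.17 ± 0.379. Upstream of Dlx6, Dlx6 a (chr6:6810707-6811027, 3 probes) had -0.266 ± 0.443 and Dlx6 b (chr6:6812696-6813052, 4 probes) had -0.194 ± 0.28. Dlx6 a was also the dimmest of the 12, with an input well above background at 52.0% of its spots, against 68.0% to 99.0% for the others. Over all 12 islands no spot was saturated.

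To ask whether the family differs among adult tissues, the means of the 8 tissues were compared with an F test in limma, fitted to all islands. No Dlx island passed at an adjusted p under 0.05, against 0.0794% of all islands, and without adjustment 1 Dlx island was under 0.05 (3.9% of all islands). This was Dlx6 c, with -0.769 and -0.513 in colon, -0.721 and -0.825 in pancreas, and -0.117 and 0.377 in lung (limma F test, adjusted p = 1). The colon and pancreas arrays were male and the lung arrays female, so among these arrays alone sex and tissue go together. The other tissues had a female and a male array. In that order Dlx6 c had -0.554 and -0.66 in brain, -0.171 and -0.729 in kidney, and -0.451 and -0.891 in liver. Muscle had 0.0606 and -0.463, and spleen -0.214 and 0.0561. With sex as a covariate, 0 Dlx islands were under 0.05 without adjustment, and 783 of all 13847 islands were. On simulated data with 200 islands raised by 1 unit in brain, this F test recovered 7 (3.5%). Islands that it did not call can therefore still differ among tissues. Brain was compared with the mean of the 7 other tissues because Dlx genes act in the forebrain. No Dlx island passed, nor did any other island (0% of all, limma, with 553 islands, 3.99% of all, and none of Dlx under 0.05 without adjustment). The largest difference in size was at Dlx6 b, where the brain arrays had -0.138 and 0.416 and the difference was 0.381 (SE 0.19). Whole brain was measured, not the forebrain cells in which Dlx genes act.

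Embryos of 8.5 to 12.5 days were compared with adult tissue in a single limma fit of 5 groups. No Dlx island passed at an adjusted p under 0.05, where 8.8% of all islands did. The embryo arrays shared no slide, scan day or software version with any adult array, so for every difference between embryos and adult tissue these cannot be told apart from age, and over all islands the 1219 calls became 3, 0 and 7 with each of these as a block. Embryo means were lower than adult means at 8 of the 12 islands, whereas 58.8% of all islands were higher in embryos. The median difference was -0.0782, against 0.0385 over all islands. Without adjustment 3 islands were under 0.05 (22.1% of all islands). At Dlx3 b the embryos gave -0.0776, -0.26, -0.171, -0.0851 and -0.0639, all below 0, whereas 14 of 16 adult arrays were above 0, and the difference was -0.241 (SE 0.0898, limma, adjusted p = 0.0926). This call depends on the fit, since with embryos and adult tissue alone 1 Dlx island, Dlx3 b, passed (limma, adjusted p = 0.0456). At Dlx4 b the difference was -0.286 (SE 0.106, limma, adjusted p = 0.0918), from embryo values between -1.13 and -0.933. The scores of Dlx4 helped to choose the family, so the result at Dlx4 b is a description. At Dlx2 b the difference was -0.364 (SE 0.157, limma, adjusted p = 0.157). Its lowest value, -1.37, was that of the embryo of 8.5 days, and the embryos of 11.5 and 12.5 days had -0.377 and -0.366, close to the adult median of -0.31. Like the rest of the family, the forebrain and jaw genes Dlx2, Dlx5 and Dlx6 had no island called in either direction in the fit of 5 groups (8.8% of all islands were).

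**Figure D2:**
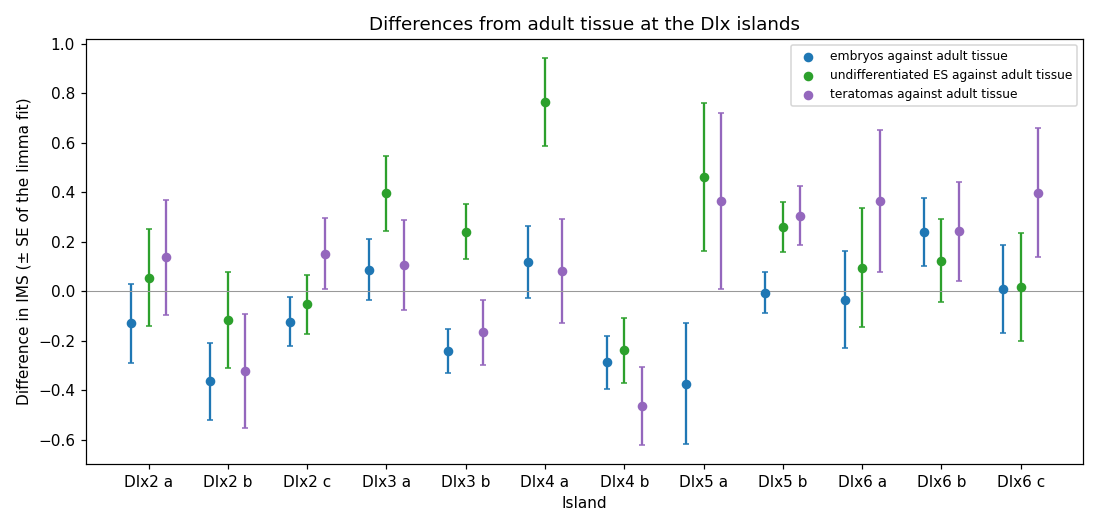
Difference in IMS from adult tissue (y axis, mean and SE of the limma fit) for each Dlx island (x axis) in embryos, undifferentiated ES cells and teratomas. Dlx4 a in undifferentiated ES cells, at 0.764, lies highest of all, and its values were among those that chose the family.

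Of the 12 islands, Dlx4 a lay farthest above adult tissue in differentiated ES cells. The island (chr11:94959289-94959529, 3 probes) lies inside the gene, 2846 to 3042 bases after the start. In adult tissue the IMS ran from -0.901 to -0.104 with a median of -0.477. Embryos had -0.153, -0.167, -0.495, -0.613 and -0.552, and teratomas -0.471 and -0.396, within the adult range. In differentiated ES cells it was 1.57 in embryoid bodies, 1.58 with retinoic acid, 1.54 and 1.17 in endoderm and 1.19 in mesoderm. No array of differentiated cells overlapped any adult, embryo or teratoma array. The mean was 1.41 ± 0.207 (n = 5) against -0.515 ± 0.214 (n = 16), and the difference of 1.92 is a description, since these values chose the family.

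Before differentiation the 3 ES lines differed at this island. EB5 had 0.5, TT2 0.846 and the array labelled J1 -0.599. EB5 and TT2 were above all 16 adult arrays at all 3 probes, and J1 was within the adult range. Both were also above all adult arrays at Dlx3 a and Dlx3 b, so at 3 of 12 Dlx islands, where 6.44% of all islands were. The mean difference from adult tissue was 0.764 (SE 0.177), and it was 1.19 without J1, 0.639 without EB5 and 0.466 without TT2. With scan day, slide or software version as a block it was 0.295, 0.896 or 0.588. In the limma fit over all islands Dlx4 a was the only Dlx island past the threshold, where 2.53% of all islands were (4 of 12 and 17.1% without adjustment), and it was not past it without EB5, without TT2 or with any of these blocks. The scores of Dlx4 against the other samples, these arrays among them, chose the family, so the count is a description and supports nothing. Within slides, EB5 was 0.896 above the pancreas array on its slide, the second endoderm array 1.82 above the other pancreas array, and embryoid bodies 2.34 above a brain array. J1 was scanned on the day of 6 adult arrays and lay -0.182 to 0.145 from them, so the line and the array cannot be told apart.

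The change was seen at each of the 3 probes, and in the bound channel on all differentiated arrays but the first of endoderm. On all 5 differentiated arrays each probe was above its highest adult value, and the lowest of these values was 0.964. Bound signal over local background was 1.31 to 3.36 in adult tissue (median 1.71) and 2.43 to 13.6 in differentiated cells (median 6.38), while input over background was 2.47 to 5.39 and 2.67 to 5.32. The first endoderm array had the bound value of 2.43, within the adult range, and an input of 5.32. These ratios also carry the level of the whole array, with a median bound ratio of 3.54 in embryoid bodies and 1.54 in the second brain array. With normexp background correction the mesoderm array fell to -0.0989, and the other 4 differentiated arrays stayed between 1.03 and 1.65.

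The island at the start of Dlx4 remained low in most of these cells. Dlx4 b was -0.96, -1 and -1.01 in EB5, J1 and TT2, where EB5 and TT2 were raised at Dlx4 a. In differentiated cells it was -0.867 in embryoid bodies, -0.737 in mesoderm, -0.51 and 0.0215 in endoderm and -0.315 with retinoic acid. These 5 values were above all embryo and all undifferentiated ES arrays but overlapped adult tissue. In the first endoderm array the raised probes lay at both ends of Dlx4 b, with Z-scores of 0.779 at position 145 and 0.633 at position 1261. None of the 12 probes of Dlx4 b, against 3 of 3 of Dlx4 a, was above all adult arrays on every differentiated array.

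**Figure D3:**
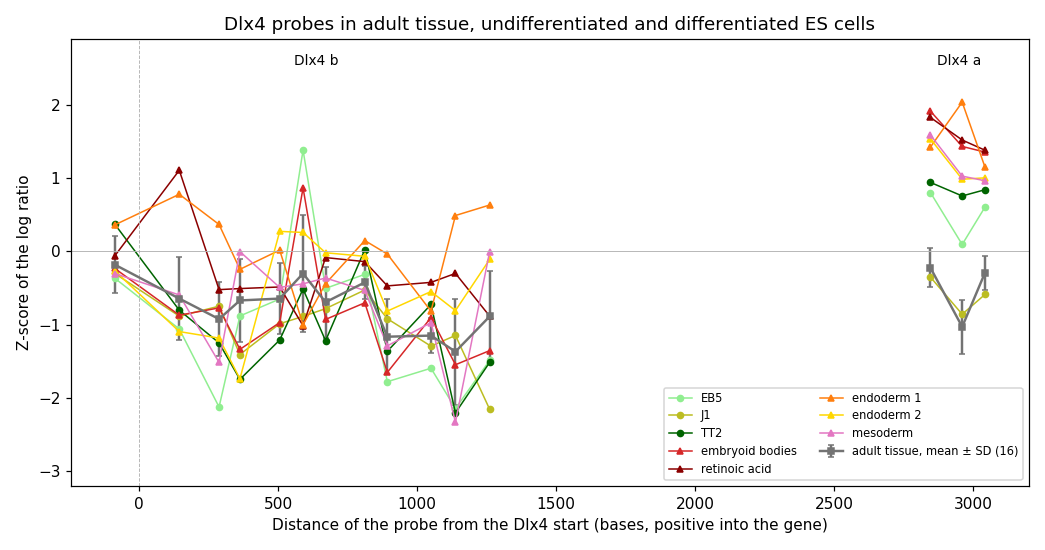
Z-score (y axis) of each Dlx4 probe by its distance in bases from the gene start (x axis), with adult tissue as mean and SD and each ES cell array as a line. At the 3 probes of Dlx4 a the 5 differentiated arrays (triangles) lie between 0.964 and 2.04, EB5 and TT2 between 0.094 and 0.941, and J1 with adult tissue, whereas at Dlx4 b the lines mix.

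Dlx4 a was the only Dlx island with all 5 differentiated arrays above all 16 adult arrays, 1 of 12 where 2.52% of all islands were, and none was below all of them (0.881% of all). Of all 13847 islands, 4 (0.0289%) were both below 0 on all adult arrays and above 0.75 on all 5 differentiated arrays. Dlx4 a is among them by the values that chose the family, so this is a description. Against embryos 3 Dlx islands did not overlap, Dlx3 b, Dlx4 a and Dlx4 b, all higher in differentiated cells (8.54% of all islands were), and none was below (5.68% of all). Against undifferentiated ES cells Dlx4 a and Dlx4 b were above (3.86% of all islands) and Dlx5 b was below (5.21% of all). With the deposited Z-scores 3 Dlx islands could be compared (Dlx2 c, Dlx3 b and Dlx4 b) and Dlx4 a could not, and there Dlx3 b was above all adult, embryo and undifferentiated ES arrays, whereas in the scores used here it overlapped adult tissue. Dlx4 a and Dlx4 b are of the gene whose scores chose the family, so their place among the islands raised over embryos is a description. All of the islands raised over embryos in the scores used here were of the Dlx3 and Dlx4 pair on chromosome 11.

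Within that pair Dlx3 b followed Dlx4 a in part. It was 0.592 and 0.823 in endoderm, 0.528 with retinoic acid, 0.289 in embryoid bodies and 0.0402 in mesoderm, and the endoderm and retinoic acid arrays were above the highest adult value of 0.336. Undifferentiated lines had 0.389 (EB5), 0.247 (J1) and 0.416 (TT2), a difference of 0.241 from adult tissue that did not pass (SE 0.11, limma, adjusted p = 0.259). Of its 8 shared probes at position 765 or beyond, 6 averaged higher in differentiated cells than in adult tissue, with the largest gaps at positions 1791 (0.727 against -0.15) and 1636 (0.868 against 0.084). At the probe nearest the start, position 31, the means were 0.253 and 0.014. Dlx3 a moved otherwise, with 1.77, 1.48 and 1.83 in the undifferentiated lines (difference 0.396, SE 0.152, limma, adjusted p = 0.17) and 0.968 to 1.52 in differentiated cells. Over 34 arrays the IMS of Dlx4 a and of Dlx3 b had r = 0.58, a description over arrays that share slides and groups.

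Around the pair, 1 unnamed island was, like Dlx4 a, higher in differentiated cells than in adult tissue. Of the 7 islands without a Dlx name within 100 kb of a Dlx island, chr11:95039424-95039830 (4 probes, 76962 bases from Dlx4 b) had 1.03 ± 0.375 in differentiated cells, at least 0.671 on each array, against -0.226 ± 0.191 in adult tissue with a highest value of 0.0871. In undifferentiated cells it was -0.0446 ± 0.288 (n = 3). Min6 and aTC had -0.104 and -0.0147 there, below the highest adult value, whereas both lines were above all adult arrays at Dlx4 a. On the other side of the pair, differentiated cells and adult tissue had 1.58 ± 0.235 and 1.89 ± 0.331 at Samd14, 0.24 ± 0.107 and 0.335 ± 0.215 at Pdk2, and -0.713 ± 0.296 and -0.863 ± 0.175 at the integrin gene Itga3, and their ranges overlapped. The neighbours of Dlx2 and Dlx5 (Metapl1, Acn9 and an unnamed island) differed by at most 0.111.

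The islands whose IMS over the 34 arrays was most like that of Dlx4 a were at Duoxa2 (r = 0.955, 5 probes), Mmp9, a matrix metalloproteinase (r = 0.939, 7 probes), and Chx10, a retinal homeobox gene (r = 0.932, 5 probes). Each was below 0 in adult tissue (-0.493 ± 0.241, -0.263 ± 0.283 and -0.303 ± 0.197) and high in differentiated cells (1.34 ± 0.322, 2.07 ± 0.339 and 1.52 ± 0.14). Undifferentiated cells lay between, with a wide spread among lines as at Dlx4 a (SD 0.779, 0.873 and 0.923, n = 3). All islands of this paragraph were picked by their r over these same 34 arrays. Their likeness in pattern therefore follows from the choice and is a description. For Dlx4 b the highest values were lower, r = 0.695 at Olig1, 0.649 at Ebf1 and 0.636 at Gm1008. The island most like Dlx3 a, the Dlx island highest in adult tissue, was that of Fibcd1 (r = 0.796), followed by Ntng2 (r = 0.788) and Ptgfrn (r = 0.775). These 3 were at 2.13 ± 0.317, 2.21 ± 0.289 and 2.17 ± 0.299 in adult tissue and at 0.213, -0.361 and 0.0273 in Min6.

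Retinoic acid treated cells, meant to be neuro-ectodermal, were higher than the other differentiated cells at Dlx2 a, Dlx2 c and Dlx5 a. At Dlx2 a the retinoic acid array had 0.966 and the other 4 had -0.361, 0.124, -0.334 and -0.349. At Dlx2 c it had 0.327 against -0.604, -0.335, -0.473 and -0.594. At Dlx5 a it had 1.27 against 0.418, 0.239, -0.34 and -0.906. Undifferentiated TT2, the parent line by the label, had 0.309, -0.466 and 1.18 at Dlx2 a, Dlx2 c and Dlx5 a. J1, the parent by the methods, had -0.278, -0.542 and -0.271. At Dlx5 a TT2 was thus high without retinoic acid, and the part of the parent line was not tested. The retinoic acid array was not the highest at all forebrain members. Dlx2 b was -0.00849 with retinoic acid and 0.0399 in the second endoderm array, Dlx6 b was -0.0375 against -0.579 to 0.105 in the other 4, and the shared probes of Dlx1 averaged -0.337 against -0.545 to -0.0693. Dlx6 a was 0.12, with 0.0296 as the highest of the other 4. The retinoic acid array was above all 16 adult arrays at 6 Dlx islands (Dlx3 b, Dlx4 a, Dlx4 b, Dlx2 a, Dlx2 c and Dlx5 a), where 11.6% of all islands were. Embryoid bodies were so at 1 (14.3% of all), both endoderm arrays at 2 (9.06%) and mesoderm at 1 (15.9%). The raised Dlx2 probes were inside the gene and past its end, with Z-scores of 1.97 at position 2541 and 1.92 at position 2414, and -0.306 at position -206. With 1 array the difference has no replicate check, and this array shares its slide with no other.

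The second island of Dlx5 also set lines apart. At Dlx5 a TT2 had 1.18, while EB5 had -0.0364 and J1 -0.271, and 7 of its 8 probes in TT2 were above all adult arrays. Teratomas had 0.605 and -0.215 there. Embryos were low, from -0.827 to -0.355, and the adult range of -0.622 to 0.627 covered all but the first. The group differences from adult tissue did not pass (0.462, SE 0.298, limma, adjusted p = 0.451 for ES cells, and -0.372, SE 0.243, limma, adjusted p = 0.398 for embryos). At the start of Dlx5, ES cells were 0.259 above adult tissue (SE 0.1, limma, adjusted p = 0.171), with 0.0398, 0.186 and 0.00312. With only probes of bright input on every array, that difference was 0.573 and passed (limma, adjusted p = 0.0074). Dlx6 c was -1.45 and -1.29 in endoderm and -0.907 in mesoderm, where the lowest adult array had -0.891, and -0.821 in embryoid bodies and -0.291 with retinoic acid.

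Teratomas, in which ES cells had differentiated in a host, were low at Dlx4 a. No Dlx island passed against adult tissue (0.195% of all islands did). Without adjustment 2 were under 0.05 (7.7% of all islands). These were Dlx4 b, at -1.22 on both arrays (difference -0.463, SE 0.156, limma, adjusted p = 0.419), and Dlx5 b, 0.305 higher (SE 0.119, limma, adjusted p = 0.519). The result at Dlx4 b is a description, since scores of Dlx4 helped to choose the family. With 2 arrays, differences of 0.399 at Dlx6 c (SE 0.26) and 0.364 at Dlx5 a (SE 0.356) did not pass (limma, adjusted p = 0.736 and 0.818). Teratomas had -0.433 ± 0.0529 at Dlx4 a where differentiated cells had 1.41 ± 0.207. By the labels the teratomas came from J1, which had -0.599 before differentiation, and the differentiated cells from EB5 and TT2, which had 0.5 and 0.846, so the parent line and growth in a host cannot be told apart.

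The pancreatic lines gave the other pattern of the family. Dlx2 c was 1.04 in Min6 and 1 in aTC, against -0.443 in sorted β cells and -0.433 and -0.477 in pancreas. Dlx2 a was 1.33 and 0.852 against 0.0253 in β cells, and Dlx2 b 0.995 and 0.815 against -0.547. Dlx6 c was 1.3 and 1.2 against -0.855. Both lines were above all adult arrays at 6 of the 12 islands, those 4 with Dlx4 a (0.148 and 0.193) and Dlx5 b (0.155 and 0.311), where 12.2% of all islands were, and below at none (19.1%). Sorted β cells were above all adult arrays at no Dlx island (11.5% of all islands were) and below at none (9.84%). Differences from Min6 and aTC to β cells are between single arrays, and both lines were on 1 slide.

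**Figure D4:**
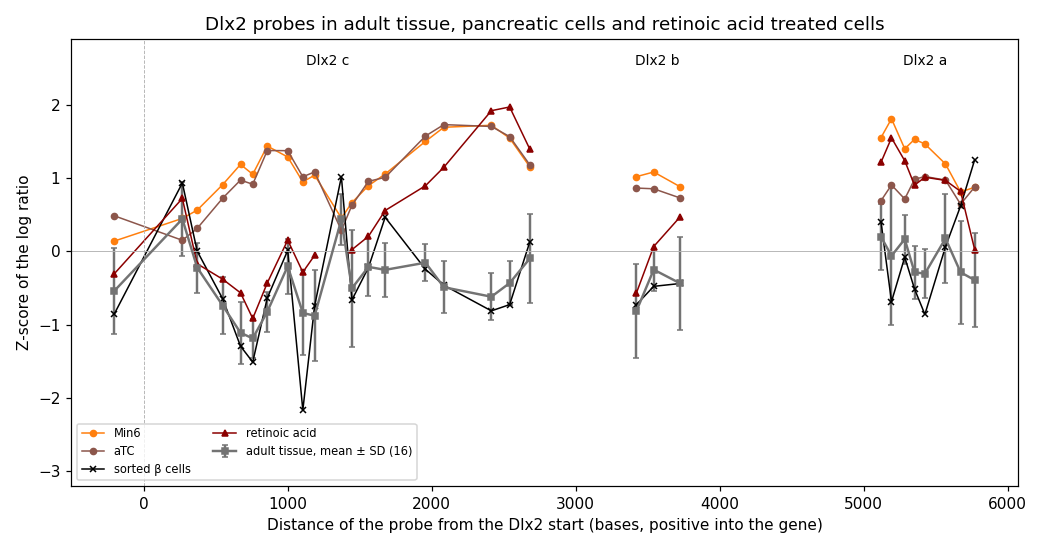
Z-score (y axis) of each Dlx2 probe by its distance in bases from the gene start (x axis), for adult tissue (mean and SD), Min6, aTC, sorted β cells and retinoic acid treated cells. Min6 and aTC lie above all adult arrays at 16 of the 19 shared probes of Dlx2 c, and the retinoic acid array does so in that island at 6 probes, from position 1676 to 2681.

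The high values of the lines covered the Dlx2 gene. Both were above every adult array at 16 of 19 shared probes of Dlx2 c, at the 3 probes of Dlx2 b that all arrays hold and at 3 of 8 of Dlx2 a. In the neighbour Dlx1, aTC had a mean of 1.01 at the 2 shared probes, above all other arrays, while Min6 had -0.0863 and β cells -0.205. At Dlx5 a aTC had 0.903 and Min6 -0.275, so the lines differed at Dlx1 and Dlx5 a and were alike at Dlx2 and at the Dlx6 start. Over 34 arrays the IMS of Dlx2 c and Dlx6 c had r = 0.715, and without both lines r = 0.234 over 32 arrays, so that this likeness rests on the lines. Dlx2 a and Dlx2 c had r = 0.804, and 0.599 without them.

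Other genes of the programmes in which Dlx genes act were listed in the same way. These lists were chosen with earlier results of these data known, so their p-values are not those of lists fixed blind. Of 28 genes of the GABAergic and ventral forebrain programme, 24 had 48 islands, and of 26 genes of jaw, limb and bone, 23 had 52. In adult tissue their medians were -0.236 and -0.231, close to that of the Dlx islands. In embryos 5 forebrain islands were called, all lower than adult tissue, with a median difference of -0.0138, and 7 jaw and limb islands, all lower, with a median of -0.208 (8.8% of all islands were called, with a median of 0.0385). Among them, Lhx6, a transcription factor of interneurons that acts after the Dlx genes, was at -0.589 ± 0.141 in embryos and 0.859 ± 0.681 in adult tissue at 1 island (difference -1.45, limma, adjusted p = 0.000802). A second Lhx6 island differed by -1.56 (limma, adjusted p = 0.00161) and the remaining island by -0.613 (limma, adjusted p = 0.00558), and an island of Ebf1 by -0.662 (limma, adjusted p = 0.018). Of the jaw and limb genes, Hand1, a target of endothelin signalling in the jaw, differed by -1.51 (limma, adjusted p = 9.55e-05), the bone factor Sp7 by -0.906 (limma, adjusted p = 0.000203), Alx4 by -1.41 (limma, adjusted p = 0.00117) and Msx1 by -1.05 (limma, adjusted p = 0.00255). With slide, scan day or software version as a block, or with normexp background correction, no island of either list was called in embryos, and the differences at the 8 islands named here stayed below 0. Differences at the Dlx islands, of which none was called in the fit of 5 groups, ran from -0.372 to 0.24.

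In undifferentiated ES cells 2 forebrain islands and no jaw or limb island were called (2.53% of all). Slc32a1, the vesicular GABA transporter, was 1.45 higher than in adult tissue at 1 island (0.962 ± 1.37, n = 3, limma, adjusted p = 0.00757), and Ebf1 differed by -0.794 (limma, adjusted p = 0.0494). Without EB5 or without TT2 no forebrain island was called, nor was any island of the array, and Slc32a1 then differed by 1.4 (limma, adjusted p = 0.272) and 0.798 (limma, adjusted p = 0.363). Without J1 it differed by 2.16 (limma, adjusted p = 3.51e-07) and 5 forebrain islands were called. With scan day as a block neither island was called, at 0.569 for Slc32a1 (limma, adjusted p = 0.989) and -0.521 for Ebf1 (limma, adjusted p = 0.992), and none was with normexp or log2 ratios. In differentiated ES cells all 5 arrays were above all adult arrays at 3 of 48 forebrain islands, all of Slc32a1, and at none of 52 jaw and limb islands (2.52% of all). Min6 and aTC were above all adult arrays at 20 of the 48 and 33 of the 52 (12.2% of all). Against teratomas, among tissues and for brain, none of either list was called.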

How the data were processed

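Scans of 34 arrays were made by the authors, whose Feature Extraction software subtracted background, normalised the dyes linearly and gave log10 ratios of bound over input. The deposited files hold these log10 ratios and median signal and background intensity per spot, and a further table, deposited as processed by the authors, has a score per probe, their Z of its log ratio. In the study Z-scores were taken according to probe Tm. That step was left out, since the files used hold no probe sequences. Flagged non-uniform and outlier spots and 442 probes without a position were left out. Positions were those of the larger array design, because 6 arrays' files give positions of another build. Dlx6 is named only in the smaller design.

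Z-scores were computed over each array (Python 3.11.15, numpy 2.4.6, pandas 2.3.3), and islands need 3 probes on every array. All islands were fitted with limma 3.58.1 (lmFit and eBayes, R 4.3.3), with Benjamini-Hochberg adjustment and a threshold of 0.05. Adult, embryo, ES, differentiated ES and teratoma arrays shared 1 fit, and tissues were compared within adult arrays. The fits were tested on simulated data. Dlx members, lists and rules were chosen with earlier results of these data known. All Dlx islands are named, with up to 4 called islands per list and contrast in order of adjusted p, neighbours within 100 kb, and the 3 islands of highest r to Dlx4 and to the highest adult island. Bisulfite, chromatin, expression and human data were not used here.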

Additional observations from a re-analysis of the deposited data

Results flagged for a closer look

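At Dlx2 c, the retinoic acid array lay apart from the other 4 arrays of differentiated ES cells, at 0.327, with a gap to the next array of 0.711 of the range of the 5 arrays. This was the only array set apart in 24 groups examined, where chance gives about 1 in 20 groups. At Dlx3 b, all 3 undifferentiated ES arrays were above the adult mean and all 5 embryo arrays below it, a difference of 0.482 between both, and both teratomas were below it too, -0.406 from the ES arrays. These differences were not tested.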

How the results depend on the processing

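No Dlx island was called among adult tissues or in brain under any of 30 alternatives each, or in teratomas under 26. In embryos the count was 1, not 0, with gaps of 250 bases, with only the groups compared and with the methods' t-test, 0 under 28 others, and 0 with each embryo array or adult tissue left out. In undifferentiated ES cells the count fell from 1 to 0 with log2 ratios, normexp, deposited Z-scores (3 Dlx islands testable), probe medians, 5 probes (6 testable), only the groups compared, the methods' t-test, and slide, scan day or software version as a block; with arrays or tissues left out it was 0 to 1. The cause was not tested, except that Dlx4 a has too few probes for deposited Z-scores and for 5 probes.

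Of the islands with a p under 0.05 before adjustment, Dlx2 b in embryos turned to 0.0112 with normexp, and Dlx5 b in ES cells to -0.0222 with slide as a block, for untested causes. Differentiated ES cells were above all adult arrays at 0 Dlx islands with normexp, bright input probes or 5 probes, at 1 with deposited Z-scores, but at Dlx3 b in place of Dlx4 a, and at 1 with any array left out. Against embryos the count of 3 fell to 1 with deposited Z-scores (Dlx3 b) or bright input, and was 3 to 4 with arrays left out. Against undifferentiated cells the count of 2 fell to 0 with normexp or bright input, and to 1 with log2 ratios, deposited Z-scores (Dlx3 b, not Dlx4 a or Dlx4 b), probe medians or 5 probes. The pancreatic lines' 6 became 1 with deposited Z-scores, 2 with bright input and 3 with 5 probes. Bright input left 5 of 12 Dlx islands and deposited Z-scores left 3. With bright input Dlx4 a could not be tested and Dlx5 b was called in undifferentiated cells.

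Differences between the replicates of a tissue correlated between tissues with r from -0.2578 to 0.6275 (median 0.1105), and 14 of 28 tissue pairs were over 0.1. Whether adult replicate numbers pair the arrays is therefore not settled. The replicate block left 0 Dlx islands called among tissues and 0 in brain. The probe grid as a block, chosen after seeing the data, changed no Dlx count. Over all islands, the 1219 called in embryos became 141 with normexp, 3, 0 and 7 with slide, scan day or software version as a block, and 648 with slide as a random block. The 351 of undifferentiated cells became 4 with log2 ratios, 5 with normexp, 96 with only the groups compared, 0 with the t-test or scan day and 140 with software version, and 1182 without J1 but 0 without EB5 or TT2. Brain had 23, not 0, without its first array. The 27 of teratomas were 6 to 43, and the 11 among tissues 1 with normexp, 8 with the replicate block and 324 with the probe grid. Z-scores within GC bins could not be run without probe sequences, and normexp used median signals. Dim Dlx6 a and Dlx5 a spots and 3-probe islands limit precision, as do groups of 1 to 3 arrays.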
